A study of Mus musculus with 12 samples.

Results

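The miR-29 family was followed across all 12 arrays of a study of mouse embryonic fibroblasts that lack ATF6b or carry it. Its members were every miRNA on the array whose name carries the number 29a, 29b or 29c, with or without the star that marks the less abundant strand of a hairpin. This gave 6 of the 611 mouse miRNAs on the array: the main strands mmu-miR-29a, mmu-miR-29b and mmu-miR-29c, and the star strands mmu-miR-29a*, mmu-miR-29b* and mmu-miR-29c*, written below without the species prefix. ATF6b is a transcription factor held in the endoplasmic reticulum membrane and released by cleavage when unfolded proteins accumulate, and tunicamycin provokes that state by blocking N-linked glycosylation. The 6 groups were ATF6b knockout (KO) and ATF6b wild type (WT) fibroblasts, each left untreated, or exposed to tunicamycin at 2 ug/mL over 12 h or 24 h, all of the C57BL/6 background strain. Each group had 2 arrays, which the design text calls independent experiments, and this number limits the precision of every value below. The labels do not say from how many embryos or lines each genotype came, so effects of the line and of the ATF6b deletion cannot be told apart.

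The miR-29 miRNAs are best known for repressing collagens, elastin, fibrillin and other matrix genes in fibroblasts, where TGF-beta signalling lowers them in fibrosis. The family is made from 4 hairpins in 2 clusters, and a mature miRNA finds its targets chiefly through its seed, the bases next to its 5' end. In mouse fibroblasts and in hepatic stellate cells, loss of the family goes with a gain of collagen. ATF6b and its better known relative ATF6a act on chaperone genes of the endoplasmic reticulum, through which all secreted collagen passes.

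The main strands share 1 seed, and the star strands carry others, which is why all arms are shown. The sequences are those of RefSeq on GRCm38.p6, 5' to 3', with the seed (bases 2 to 8) in capitals, and the 3p arms correspond to the array's main strands and the 5p arms to its star strands.
mmu-miR-29a-3p: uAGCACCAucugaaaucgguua
mmu-miR-29c-3p: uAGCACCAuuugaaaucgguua
mmu-miR-29b-3p: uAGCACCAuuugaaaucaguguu
mmu-miR-29a-5p: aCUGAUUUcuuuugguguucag
mmu-miR-29c-5p: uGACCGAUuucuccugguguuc
mmu-miR-29b-1-5p: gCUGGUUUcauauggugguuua
mmu-miR-29b-2-5p: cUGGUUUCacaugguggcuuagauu
No other mature mouse miRNA in that RefSeq table had the seed of the main strands, and 3 names shared it. Counted from the 5' end of the first sequence named, miR-29a-3p and miR-29c-3p differ by the single substitution C10U. From miR-29c-3p to miR-29b-3p the substitutions are G18A, U21G and A22U, and miR-29b-3p is 23 bases long against 22. The letters AGUGUU end miR-29b-3p and no other arm of the family; in human cells this ending is known for carrying miR-29b into the nucleus. Because miR-29a and miR-29c differ in 1 base, how far their array probes tell them apart was not tested.

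Mir29a (chr6:31062660-31062747) and Mir29b-1 (chr6:31063023-31063093) lie on the minus strand of chromosome 6, 275 bases apart, with no other annotated gene around them in the RefSeq table. Mir29b-2 (chr1:195037040-195037120) and Mir29c (chr1:195037547-195037634) lie on the plus strand of chromosome 1, 426 bases apart, inside the long noncoding RNA gene A330023F24Rik. Mature miR-29b-3p comes from both clusters. The array therefore cannot say which cluster a change in miR-29b comes from, and the name miR-29b* does not say which of the 5p arms its probes were designed for. The hairpins Mir29b-1 and Mir29b-2 are shown with both arms in capitals, since the strands of miR-29b are compared further on.
Mir29b-1 hairpin: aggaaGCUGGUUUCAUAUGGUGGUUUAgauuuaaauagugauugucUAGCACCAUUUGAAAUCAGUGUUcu
Mir29b-2 hairpin: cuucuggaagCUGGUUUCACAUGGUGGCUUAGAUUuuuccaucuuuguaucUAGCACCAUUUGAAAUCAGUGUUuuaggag

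Between 114 and 189 mouse miRNAs were detected per array. Signal is given as a multiple of each array's 75th percentile over the 93 mouse miRNAs detected on every array. That percentile was 208, 246 and 257 on 3 dim arrays (KO at 24 h, KO at 12 h and WT at 24 h, all replicate 2) and 412 to 623 on the others. One slide carries the treated arrays and another the untreated ones, which means that effects of tunicamycin and of the slide cannot be told apart. KO and WT always lie in different slide rows. Of 10 fibroblast markers 6 to 9 were detected per array. Their summed signal was 49.4 to 53.7 in KO at 12 h and 46.4 to 52.0 in KO at 24 h, against 41.3 to 44.8 in untreated KO. In WT it was 36.4 to 40.0 at 12 h and 38.3 to 42.0 at 24 h, against 41.6 to 48.7 untreated. Thus it was higher on the treated KO arrays than on the untreated KO and the treated WT arrays, without overlap. Blood, neural, and endothelial and liver markers were detected on no array, at most 1 of 4 muscle markers was, and at most 2 of 10 pluripotency markers were, with a summed signal of 0.0616 to 0.399 in untreated KO and up to 0.208 elsewhere. Epithelial markers (7 listed) had a summed signal of 2.55 to 3.72 on the treated KO arrays, with up to 4 detected, and -0.0645 to -0.0134 on every other array, where none was detected. The epithelial and fibroblast sums moved with each comparison of treated KO cells against untreated KO or treated WT cells below, while between KO at 12 h and at 24 h both sums overlapped. Their part in the results was not tested.

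The main strands miR-29a, miR-29b and miR-29c were detected on all 12 arrays, and miR-29b* on 9. Array software called miR-29a* and miR-29c* detected on 1 array each, so these star strands were not tested and 4 of the 6 members entered the fit. Called here means an adjusted p under 0.05 from limma over the 176 mouse miRNAs tested, and a log2 change is tunicamycin minus untreated or KO minus WT.

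Untreated KO cells held less miR-29a, miR-29b and miR-29b* than untreated WT cells. These 3 of the 4 tested members were called lower, where 9.66% of all tested miRNAs were called lower and 11.4% in either direction. The median over the 4 was -0.79, against -0.03 over all tested miRNAs. In RNA from whole cultures, less RNA per cell and fewer cells that hold it cannot be told apart.

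miR-29a, a product of the chromosome 6 cluster alone, stood at 1.76 and 1.71 on the untreated KO arrays, against 2.92 and 2.58 on the untreated WT arrays. The groups did not overlap, and the KO arrays lay closer together. The log2 difference was -0.66 ± 0.12 (SE, n = 2 per group; limma adjusted p = 0.0126), and within the 2 runs it was -0.73 and -0.59.

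miR-29b, the product of both clusters, stood at 1.14 and 1.0 on the untreated KO arrays, against 2.27 and 1.79 on the untreated WT arrays. Here too every KO array lay below every WT array. The log2 difference was -0.92 ± 0.22 (limma adjusted p = 0.0345), and within runs it was -0.99 and -0.84. On untreated KO replicate 2, miR-29b itself was the miRNA at the 75th percentile, which sets its value there to 1.0.

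miR-29c, from the chromosome 1 cluster alone, stood at 0.114 and 0.118 on the untreated KO arrays, against 0.159 and 0.130 on the untreated WT arrays. The arrays did not overlap, but the log2 difference of -0.31 ± 0.17 did not pass (limma adjusted p = 0.354), with a 95% interval of -0.71 to 0.09. Its within-run values were -0.48 and -0.14.

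miR-29b* stood at 0.0215 and 0.0228 on the untreated KO arrays, against 0.0724 and 0.0700 on the untreated WT arrays. The KO values lay just above the floor of 0.0191. The fitted log2 difference was -1.68 ± 0.32 (limma adjusted p = 0.0142), and the within-run values were -1.75 and -1.62. Only 1 of its 4 probes carried most of the signal, at 9.70 to 33.8 intensity units over the arrays, while the others stayed at or under 8.06. On both untreated KO arrays 0 of the 5 spots of that probe were well above background, and on both untreated WT arrays 5 of 5 were. The fitted value is therefore no measured fold. Set against the lowest probe signal well above background, averaged over both KO arrays, that probe was at least 1.36-fold lower in KO cells. Before scaling, that lowest signal was 29.9 on KO untreated replicate 1 and 15.6 on replicate 2. The leading probe gave 27.4 and 25.7 on the untreated WT arrays, so the bound comes from KO untreated replicate 2.

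The untreated calls rested on single arrays and on the processing. With every array kept, 0 members were called with normexp background correction, the percentile over all mouse miRNAs or no scaling. With the software's total signal and the deposited values it was also 0. It was 1 with quantile normalization, without the detection filter or with only the groups compared. The number of members called was 0 without WT untreated replicate 1, without KO untreated replicate 1 or without KO untreated replicate 2, and 1 without WT untreated replicate 2. All 4 members were lower in KO cells under every alternative run on all their probes. There miR-29a lay between -0.81 and -0.39, miR-29b between -1.08 and -0.73, miR-29c between -0.53 and -0.13 and miR-29b* between -3.94 and -0.25. The -3.94 is from the software's total signal, which for a detected miR-29b* is nearly that of miR-29b. The -0.25 is from normexp, which adds 50 intensity units to each spot, above the leading miR-29b* probe on every array. Neither measures miR-29b* on its own. Taken alone, 1 of the weaker miR-29b* probes gave 0.0.

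**Figure D1:**
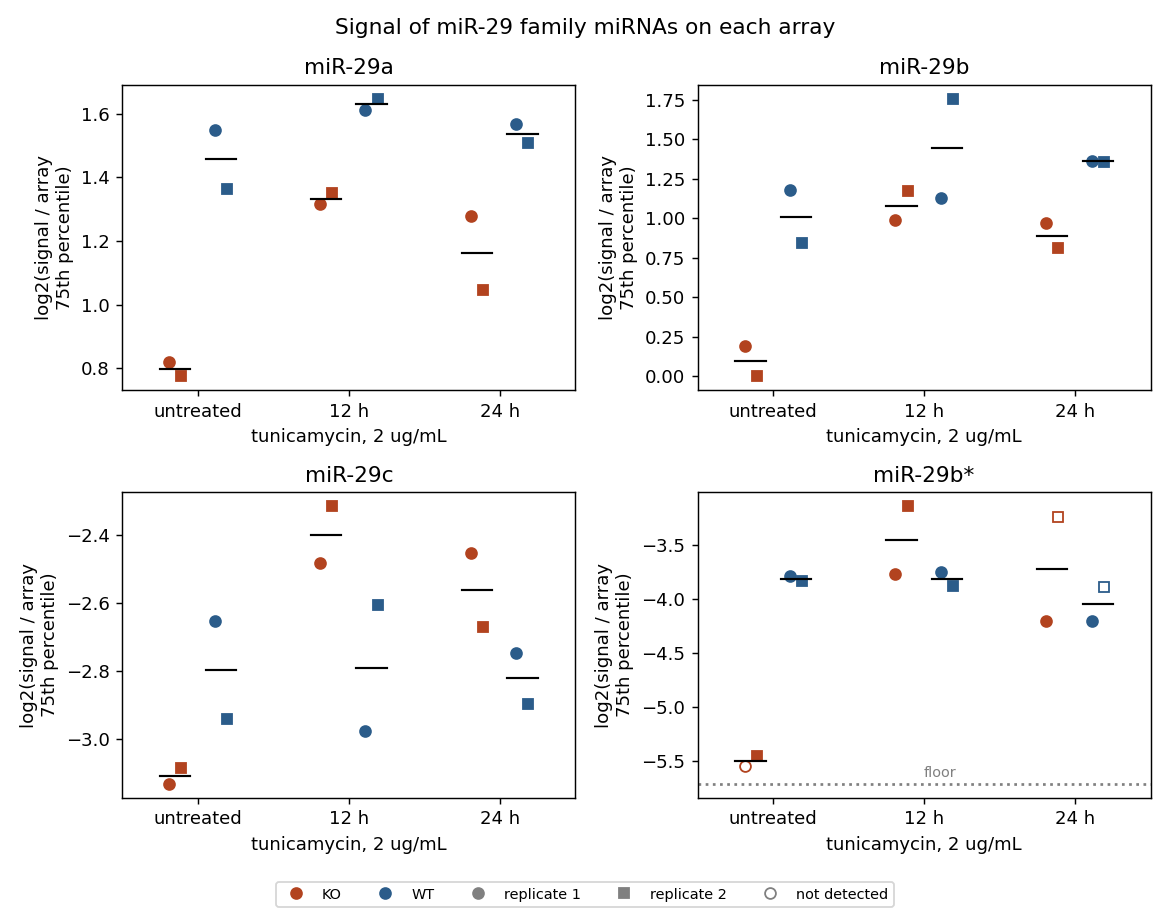
Signal of 4 miR-29 miRNAs on each of the 12 arrays, as log2 of the signal over the array's 75th percentile, by tunicamycin time. Red marks KO and blue WT, circles replicate 1 and squares replicate 2, open marks arrays on which the miRNA was not detected, bars group means (n = 2) and the dotted line the floor. For miR-29a, miR-29b, miR-29c and miR-29b* the untreated KO arrays are the lowest of all, with miR-29a at 1.76 and 1.71 times the percentile.

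After 12 h of tunicamycin the 4 tested members were all called higher in KO cells, where 21.6% of tested miRNAs were called higher and 25.6% in either direction. Their median log2 change was 0.85, against 0.25 over all tested miRNAs. miR-29a stood at 2.49 and 2.55 on the KO arrays at 12 h, against 1.76 and 1.71 on the untreated KO arrays, a log2 change of 0.54 ± 0.12 (limma adjusted p = 0.0126, n = 2 per group). miR-29b stood at 1.99 and 2.25, against 1.14 and 1.0, a change of 0.98 ± 0.22 (limma adjusted p = 0.0118). Neither had overlapping arrays. miR-29c stood at 0.179 and 0.201 at 12 h, against 0.114 and 0.118 untreated, a change of 0.71 ± 0.17 (limma adjusted p = 0.0175). miR-29b* stood at 0.0734 and 0.113 at 12 h, against 0.0215 and 0.0228 untreated, a fitted change of 2.04 ± 0.32 (limma adjusted p = 0.00191). Its leading probe had 4 and 1 of 5 spots well above background at 12 h, against 0 and 0 of 5 untreated, and its unscaled intensity was 19.8 and 16.8, against 13.0 and 9.70. On KO 12 h replicate 2 it lay under the lowest probe signal well above background there, 23.7, so no fold is given.

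At 12 h in KO cells the number called was 0 with no scaling, the percentile over all mouse miRNAs, the software's total signal or the deposited values, and 1 with normexp or quantile normalization. It was 2 without KO untreated replicate 1, 1 without KO untreated replicate 2 and 1 without KO 12 h replicate 2. With no scaling between arrays and with the deposited values miR-29a turned to -0.35 and miR-29c to -0.18, under which the median of all tested miRNAs was -0.61 and -0.47. Relative to that median miR-29a was higher by 0.29 in the main setting, 0.26 without scaling and 0.12 in the deposited values. With normexp background correction it stood at -0.10, below that median, which was 0.49 there against 0.25 in the main setting. Normexp adds 50 intensity units to each spot, and the part of that offset in the median was not tested.

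After 24 h in KO cells 3 of the 4 were called higher, where 25.6% of tested miRNAs were called higher and 30.7% in either direction, and the median of the 4 was 0.67 against 0.15 over all. miR-29b stood at 1.96 and 1.76 at 24 h, against 1.14 and 1.0 untreated, a change of 0.80 ± 0.22 (limma adjusted p = 0.0295). miR-29c stood at 0.182 and 0.157, against 0.114 and 0.118, a change of 0.55 ± 0.17 (limma adjusted p = 0.0442). With the run as a random block the adjusted p of miR-29c was 0.10, in a range of 0.0300 to 0.766 over its alternatives. miR-29a stood at 2.43 and 2.06 at 24 h, against 1.76 and 1.71 untreated. Its arrays did not overlap, and its change of 0.37 ± 0.12 lay just outside the threshold (limma adjusted p = 0.0545) and inside it with the replicate block (adjusted p = 0.0291, in a range of 0.0243 to 0.927 over its alternatives).

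miR-29b* stood at 0.0544 and 0.106 at 24 h in KO cells, against 0.0215 and 0.0228 untreated. The fitted change was 1.78 ± 0.32 (limma adjusted p = 0.00446), but the unscaled intensity of its leading probe was 14.5 and 10.6 at 24 h, against 13.0 and 9.70 untreated. That probe had spots well above background on 1 of the 2 KO arrays at 24 h, and no fold is given. KO 24 h replicate 2, where it had none, is the array with the lowest 75th percentile, 208, by which its signal is divided. The number of members called at 24 h was 0 with normexp, quantile normalization, no scaling, the percentile over all mouse miRNAs, the software's total signal, the deposited values or only the groups compared. With no scaling and with the deposited values miR-29a turned to -0.70, miR-29b to -0.27 and miR-29c to -0.52. The number called was 1 without either untreated KO array or without KO 24 h replicate 1, and 2 without KO 24 h replicate 2. Without the 3 dim arrays together, a choice made after seeing the data, it was 1 at both times, and that member was miR-29b*, with changes of 1.73 at 12 h and 1.30 at 24 h.

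In WT cells no tested member was called at either time (limma; 0 at an unadjusted p under 0.05 at either time, and 0 with no variance shrinkage), although 38.1% of tested miRNAs were called at 12 h and 43.2% at 24 h. miR-29a stood at 3.06 and 3.13 at 12 h and at 2.96 and 2.84 at 24 h, against 2.92 and 2.58 untreated. The changes were 0.17 with an interval of -0.11 to 0.45, and 0.08 with an interval of -0.20 to 0.36. Both 12 h arrays lay above the untreated ones, and the 24 h arrays overlapped them. miR-29b stood at 2.19 and 3.38 at 12 h and at 2.58 and 2.56 at 24 h, against 2.27 and 1.79 untreated. Its 12 h arrays had the widest spread of any miR-29b group (log2 SD 0.44) and overlapped the untreated ones, while both 24 h arrays lay above them. The changes were 0.43 (-0.08 to 0.94) and 0.35 (-0.16 to 0.86), and without WT 12 h replicate 1 the 12 h change was 0.75 and called.

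miR-29c stood at 0.127 and 0.164 at 12 h and at 0.149 and 0.134 at 24 h in WT cells, against 0.159 and 0.130 untreated. These values overlap throughout, with changes of 0.0054 (-0.39 to 0.40) and -0.02 (-0.42 to 0.37). On WT 24 h replicate 2, 8 of 20 spots of miR-29c were well above background. miR-29b* stood at 0.0744 and 0.0681 at 12 h and at 0.0544 and 0.0675 at 24 h, against 0.0724 and 0.0700 untreated. The 12 h arrays overlapped the untreated ones and both 24 h arrays lay below them, with a change of -0.23 (-0.98 to 0.51) at 24 h. The leading miR-29b* probe had 5 and 1 of 5 spots well above background at 12 h, and 5 and 0 of 5 at 24 h.

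**Figure D2:**
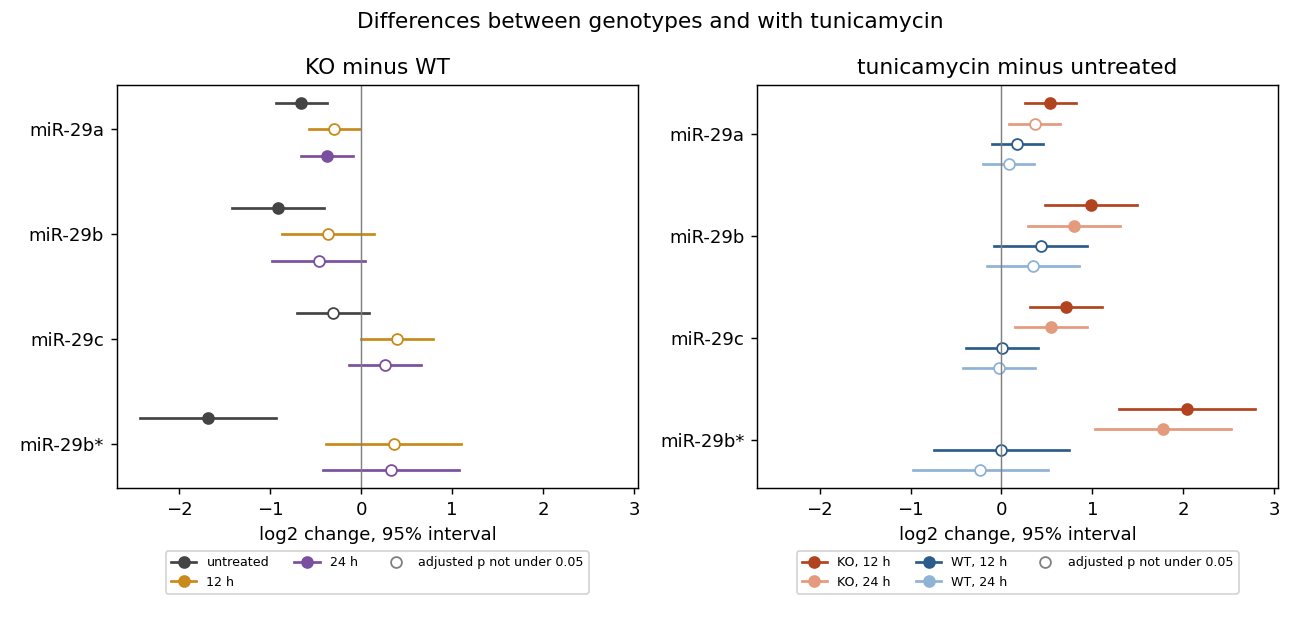
Log2 changes of 4 miR-29 miRNAs with 95% intervals from limma, KO minus WT at each time (left) and tunicamycin minus untreated in each genotype (right). Filled points have an adjusted p under 0.05. The untreated genotype differences lie left of 0, at -0.66 for miR-29a, and the changes in KO cells lie right of 0.

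The difference between genotypes in the 12 h response, the contrast the design text asks about, was called for 1 of the 4 tested members, where 24.4% of all tested miRNAs were called, 22.2% with the higher response in KO. That member was miR-29b*, with a difference of 2.04 ± 0.45 (limma adjusted p = 0.0163). For the main strands the KO response exceeded the WT response by 0.36 for miR-29a (interval -0.03 to 0.76), 0.55 for miR-29b (-0.16 to 1.27) and 0.70 for miR-29c (0.14 to 1.27), with adjusted p of 0.162, 0.236 and 0.0769 from limma. The median over all tested miRNAs was 0.37. A separate response of the main strands in the genotypes was not shown. With the run as a random block miR-29c was also called (adjusted p = 0.0361, in a range of 0.0361 to 0.972 over its alternatives).

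At 24 h the response differed for miR-29b* by 2.01 ± 0.45 (limma adjusted p = 0.0203), and 20.5% of tested miRNAs were called. The main strands were at 0.28 for miR-29a, 0.45 for miR-29b and 0.57 for miR-29c, none called, against 0.44 over all tested miRNAs. The call of miR-29b* was lost at 12 h without WT untreated replicate 1, KO untreated replicate 1, WT 12 h replicate 2 or KO 12 h replicate 2, and at 24 h without WT untreated replicate 1, either untreated KO array or either WT 24 h array. With normexp the value was 0.70 at 12 h and 0.60 at 24 h, neither called, and in the deposited values it turned to -0.24 and -0.025. Neither setting checks miR-29b* on its own. Normexp adds 50 intensity units to each spot, and the deposited total of a detected miR-29b* is nearly that of miR-29b. The fitted values at both times take in the untreated KO arrays, on which the leading probe of miR-29b* was not well above background. That probe also had 0 spots well above background on replicate 2 of KO 24 h and of WT 24 h. It had 1 of 5 on replicate 2 of KO 12 h and of WT 12 h. On the treated replicate 1 arrays it had 4 or 5 of 5.

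Between treated KO and treated WT cells, miR-29a was called lower at 24 h and no other member was called at either time. At 12 h no member was called between KO and WT (limma; 1, miR-29a, at an unadjusted p under 0.05, and 1 called with no variance shrinkage), while 38.1% of tested miRNAs were. miR-29a stood at 2.49 and 2.55 in KO, against 3.06 and 3.13 in WT, a difference of -0.30 ± 0.12 (adjusted p = 0.095, limma). With the run as a random block it was called (adjusted p = 0.0381, in a range of 0.0360 to 0.607 over its alternatives). miR-29b differed by -0.36 (interval -0.87 to 0.15), and without WT 12 h replicate 1 by -0.68, which was called. miR-29c differed by 0.39 (-0.01 to 0.79), with both KO arrays above both WT arrays, and miR-29b* by 0.36 (limma adjusted p = 0.420).

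At 24 h miR-29a was called lower in KO cells, where 7.39% of tested miRNAs were called lower and 34.7% in either direction. It stood at 2.43 and 2.06 in KO, against 2.96 and 2.84 in WT, a difference of -0.38 ± 0.12 (limma adjusted p = 0.0462). The call was lost without any 1 of 9 arrays and held without either WT untreated array or KO 24 h replicate 1. miR-29b differed by -0.47 (-0.98 to 0.04) with no overlap of arrays, miR-29c by 0.26 (-0.14 to 0.66) and miR-29b* by 0.33 (-0.42 to 1.07). The median over all tested miRNAs was 0.25.

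Paired by run and time, KO was below WT in 6 of 6 pairs for miR-29a, by 0.29 to 0.73 on the log2 scale, and in 6 of 6 for miR-29b, by 0.14 to 0.99. For miR-29c KO was below WT in 2 of 6 pairs, both untreated, and above it in the 4 treated pairs. miR-29b* was below WT in 3 pairs and above it in 3.

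Between 12 h and 24 h no member was called in either genotype (limma; 0 at an unadjusted p under 0.05 in both, and 0 with no variance shrinkage), and 0.568% of tested miRNAs were called in KO and 1.14% in WT. Changes lay between -0.26 and -0.16 in KO and between -0.23 and -0.03 in WT, beside medians of -0.13 in both over all tested miRNAs.

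In order of group mean, miR-29a was highest in WT at 12 h, followed by WT at 24 h, WT untreated, KO at 12 h, KO at 24 h and KO untreated. Only the ranges of WT at 24 h and WT untreated overlapped between neighbours in that order. For miR-29b the order was WT at 12 h, WT at 24 h, KO at 12 h, WT untreated, KO at 24 h and KO untreated, with overlap between the first and next, and among KO at 12 h, WT untreated and KO at 24 h in turn. For miR-29c the order began with KO at 12 h and KO at 24 h, and every neighbour overlapped except KO untreated at the bottom. For miR-29b* KO at 12 h was again at the top and KO untreated at the bottom, below every other group.

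Both probes of each main strand had the same sign in the untreated genotype difference and at 12 h in KO cells. Untreated KO minus WT was -0.74 and -0.63 by the 2 probes of miR-29a, -0.99 and -0.91 by those of miR-29b and -0.29 and -0.32 by those of miR-29c. At 12 h in KO cells they gave 0.57 and 0.53, 1.13 and 0.97, and 0.74 and 0.68. In WT cells at 12 h the probes of miR-29c gave 0.10 and -0.08, and for 24 h minus 12 h in WT -0.14 and 0.05. For miR-29b* the leading probe gave -1.38 in untreated KO minus WT and 1.58 at 12 h in KO, so the summed probes gave larger changes than that probe alone. The other miR-29b* probes gave 0.0, -0.62 and -1.12 in untreated KO minus WT, and 0.52, 1.44 and 1.56 at 12 h in KO.

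The strands of miR-29b were compared by their difference within each array, since levels of different probes are not comparable. miR-29b minus miR-29b* was 5.73 and 5.45 on the untreated KO arrays, against 4.97 and 4.68 on the untreated WT arrays. It was 4.76 and 4.31 at 12 h and 5.17 and 4.05 at 24 h in KO, against 4.88 and 5.63 at 12 h and 5.57 and 5.24 at 24 h in WT. The KO arrays lay above the WT arrays when untreated and below them at both treated times. The KO minus WT means were 0.77 untreated, -0.72 at 12 h and -0.80 at 24 h, which gave -0.25 over all 12 arrays (4.91 ± 0.66 in KO and 5.16 ± 0.39 in WT, SD, n = 6 each). This last value ran from -0.41 to -0.078 when 1 array was left out, and was -0.69 with normexp and 0.88 with the software's total signal. In those settings miR-29b* is mostly an added constant or, where detected, nearly miR-29b, so neither checks the strand difference.

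With tunicamycin the strand difference changed by -1.02 in KO cells (4.57 ± 0.49 on 4 treated arrays and 5.59 ± 0.20 on 2 untreated) and by 0.51 in WT cells (5.33 ± 0.35 on 4 treated and 4.82 ± 0.20 on 2 untreated). The SD between replicate arrays was 0.44. miR-29b* was not detected on KO untreated replicate 1, KO 24 h replicate 2 and WT 24 h replicate 2, so these are values with no test. With normexp background correction the KO change was -0.09. Its added 50 intensity units per spot exceed the leading miR-29b* probe's signal on every array, so that value is no check on the strands. On the untreated KO arrays the leading miR-29b* probe was not well above background, so the difference there was not measured, and the values do not show that the strands changed unequally.

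**Figure D3:**
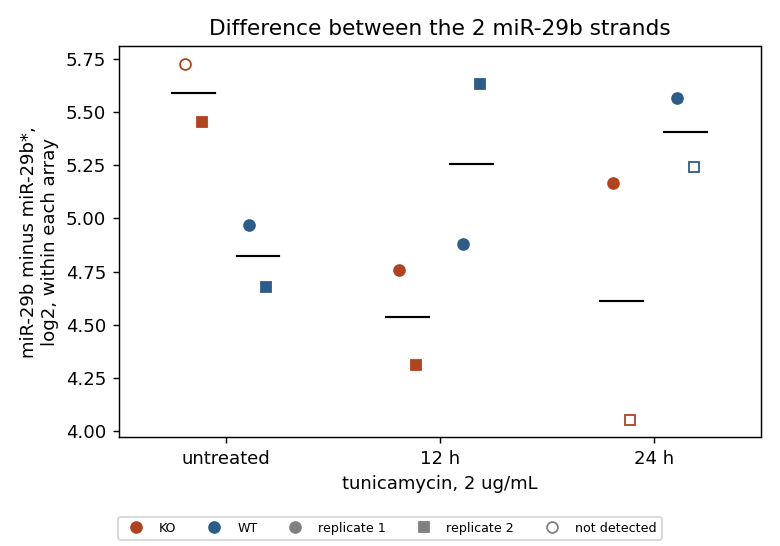
Difference of the log2 signals of miR-29b and miR-29b* within each array, by tunicamycin time; red marks KO, blue WT, circles replicate 1, squares replicate 2, open marks arrays on which miR-29b* was not detected, and bars group means. Untreated KO arrays, at 5.73 and 5.45, lie above the untreated WT arrays, and treated KO means lie below treated WT means.

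In the software's own total signal, the base of the deposited values, the total of a detected miR-29b* or miR-29a* was nearly that of its main strand. On the 9 arrays where miR-29b* was detected, its total of 373 to 1076 exceeded that of miR-29b on the same array by only 3.28 to 11.7, which is 0.596% to 1.49% of it. Changes of a detected miR-29b* in that total or the deposited values therefore nearly repeat those of miR-29b on the same arrays. On WT 24 h replicate 1, miR-29a* had a total of 1149, against 1146 for miR-29a. Among the 103 values where a star strand and its main strand were both detected on 1 array, the star total was above the main total in 62. For miR-29c*, on the 1 array where it was detected, 20.6% of its total of 59.4 lay beyond that of miR-29c.

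Outside the family, likeness was described by Pearson's r over the 6 group means, which share arrays and scaling. Of those named, miR-224 was detected on no KO array and miR-183 on only some arrays. Nearest to miR-29a were miR-224 (0.91), miR-18a (0.90) and miR-196a (0.86), and nearest to miR-29b were miR-196a (0.96), miR-18a (0.96) and miR-19b (0.92). Nearest to miR-29c were miR-183 (0.95), miR-21 (0.94), which is abundant in fibroblasts, and let-7g (0.93). Within the family r was 0.97 for miR-29a with miR-29b, 0.49 for miR-29b with miR-29c and 0.35 for miR-29a with miR-29c.

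Of 32 other miRNAs listed for targeting matrix or TGF-beta pathway genes, 31 are on the array and 23 were tested. In untreated KO against WT 1 was called higher (1.7% of all tested miRNAs were), miR-155 at 0.83 ± 0.11 (limma adjusted p = 0.00477). Another 3 were called lower, where 9.66% of all tested miRNAs were. These were miR-18a at -1.17 ± 0.23, miR-19a at -1.11 ± 0.19 and miR-19b at -0.72 ± 0.14 (limma adjusted p of 0.0144, 0.00898 and 0.0144). All 3 are members of the proliferation-linked miR-17 clusters. The list's median was 0.10.

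At 12 h in KO cells 7 of the 23 were called higher and 2 lower, where 21.6% of all tested miRNAs were higher and 3.98% lower. The list's median was 0.25, against 0.25 over all tested miRNAs. The highest were miR-200c at 6.57, miR-141 at 5.43 and miR-200b at 4.30, which are also epithelial markers from above and are set here against values at the floor, so these are no measured folds. Next was miR-19a at 2.92. The lower ones were miR-30c, which like miR-29 targets matrix genes and was not detected on KO 12 h replicate 2, at -1.16 and miR-214 at -0.77. At 24 h in KO cells 7 were called higher, where 25.6% of all tested miRNAs were. Among them miR-19a at 2.30 lay below the same 3 epithelial markers. Only miR-214 at -0.81 was lower in the list, where 5.11% of all tested miRNAs were lower, and the list's median was 0.07.

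In WT cells 4 were called higher and 7 lower at 12 h, where 14.2% of all tested miRNAs were higher and 23.9% lower. At 24 h 3 were higher and 7 lower, where 13.6% were higher and 29.5% lower, and the list's medians were -0.02 and 0.0. Those with the greatest falls at 12 h were miR-143 at -1.89, miR-199a-5p at -1.01, miR-27b at -1.37 and miR-214 at -0.87, and the risers were miR-19a at 1.66, miR-19b at 1.28, miR-18a at 1.12 and miR-26b at 0.51. At 24 h miR-143 was at -2.14, miR-199a-5p at -1.25, miR-27b at -1.46 and miR-214 at -1.01, and miR-19a, miR-19b and miR-26b were at 1.29, 1.18 and 0.50. Between KO and WT 10 were higher and 1 lower at 12 h, where 29.5% of all tested miRNAs were higher and 8.52% lower. At 24 h 9 were higher and 2 lower, where 27.3% were higher and 7.39% lower. The highest measured on both sides was miR-143, linked to smooth muscle, at 2.51 and 2.36. The lower ones were miR-30c at -1.69 at 12 h, and miR-30c at -1.20 and miR-19b at -0.60 at 24 h. The response was higher in KO for 9 of the list at both times, miR-143 among them at 2.04 and 1.89, where 22.2% and 19.9% of all tested miRNAs were. It was lower for 1 at 12 h, miR-30c at -1.55, and for 0 at 24 h, where 2.27% and 0.568% of all tested miRNAs were lower.

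**Figure D4:**
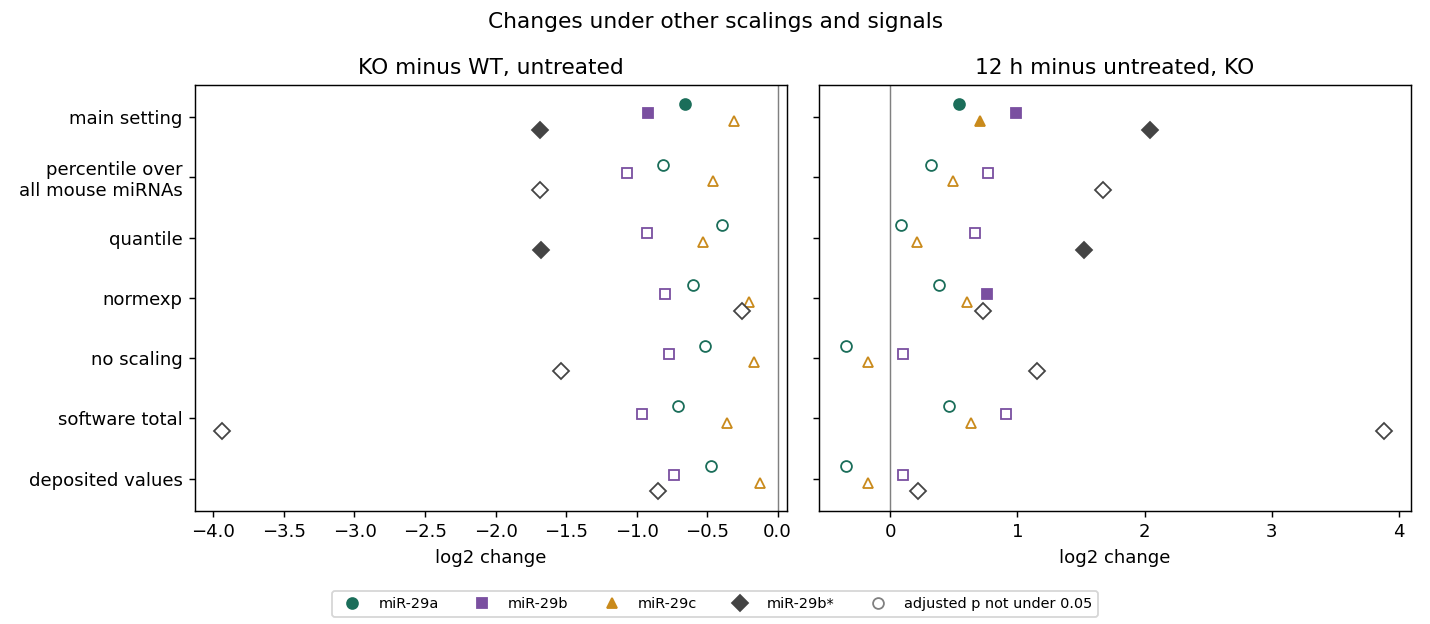
Log2 changes of 4 miR-29 miRNAs under the main setting and 6 other scalings or signals, for untreated KO minus WT (left) and 12 h minus untreated in KO (right). Filled marks have an adjusted p under 0.05. Untreated differences stay below 0 in each setting, and miR-29a in KO at 12 h turns to -0.35 with no scaling and with the deposited values. In the software total and the deposited values, a detected miR-29b* is nearly miR-29b.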

How the data were processed

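Cy3-labelled miRNA from 100 ng of total RNA was hybridised to 12 one-colour Agilent arrays, per the labels' protocols. The authors deposited scanner tables of spot intensity, for which the submitters' processing notes name Agilent Feature Extraction 10.7.1.1. They also deposited log2 values, which match the total signal computed by that software, on the log2 scale, to within 1.18e-06 and are not scaled between arrays.

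Background-subtracted intensities of a probe's spots were averaged without control and outlier spots, and probes were summed per miRNA. These sums were divided by the array's 75th percentile over the 93 mouse miRNAs detected on all arrays, floored at 0.0191 and log2-transformed. limma 3.58.1 (R 4.3.3) fitted 6 group means over 176 mouse miRNAs, each detected in 1 or more groups on both arrays (6 residual and 1.65 prior degrees of freedom). Benjamini-Hochberg adjustment ran within each of 11 comparisons, at a threshold of 0.05. The fit was tested on simulated data. The "at least" fold uses the leading miR-29b* probe: the brighter group's mean log2 against the mean of each dim array's lowest probe signal well above background on all its spots.

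Arrays of the same replicate number deviated together from the group means within a slide (r of 0.48 to 0.91) but not between slides (-0.38 to -0.05), and the number was therefore taken as a run inside its slide. The planned strand test is given as values because miR-29b* was not detected on every array. The planned background correction (normexp) added 50 intensity units to each spot. It used median spot signals, since mean signals are not in these tables. On WT 12 h replicate 1 it left out 10 spots whose local background was over 100, a limit set after seeing the data, because the fit failed on all spots, without control spots, without outlier spots and by maximum likelihood. Every family miRNA was named; outside it, the 3 nearest by r and, per comparison, up to 4 called list members in each direction. Members and lists were chosen with earlier results of these data known. Sequences were matched by name to RefSeq tables.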

Additional observations from a re-analysis of the deposited data

Results flagged for a closer look

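The response of miR-29b* to tunicamycin differed between genotypes by the test of the difference itself, at 2.04 on the log2 scale at 12 h and 2.01 at 24 h (limma adjusted p = 0.0163 and 0.0203). At 12 h it stood at 0.0734 and 0.113 on the KO arrays, against 0.0215 and 0.0228 untreated, while in WT it stood at 0.0744 and 0.0681, against 0.0724 and 0.0700 untreated. The untreated KO values lie just above the floor, and the leading probe was not well above background there, so these are no measured folds. With normexp the differences were 0.70 and 0.60 (limma adjusted p = 0.432 and 0.581), and in the deposited values -0.24 and -0.025. Neither setting checks miR-29b* on its own. Normexp adds 50 intensity units to each spot, and the deposited total of a detected miR-29b* is nearly that of miR-29b. The call was lost, with the direction kept, under 12 alternatives at 12 h and 13 at 24 h.

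The remaining star strands were outside the fit but were called detected on 1 array each. miR-29c* stood at 5.25% of the 75th percentile on KO untreated replicate 1 and at most 1.62% on the other 11 arrays, below the floor, and 1 of its 20 spots there was well above background. miR-29a* was called detected on WT 24 h replicate 1 at 2.52% of the percentile, with 2 of 20 spots well above background. On 9 of the other 11 arrays its value was higher, up to 7.08% on KO 12 h replicate 2, where it was not detected.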

How the results depend on the processing

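Over 1725 recomputed values, 1367 counted as unchanged. For a tested change this meant the same direction and side of the threshold. For a count, or a value without a test, it meant staying within a set limit. For KO at 24 h, 2 members called with the run as a random block, against 3 in the main setting, stayed within it. Another 152 lost a call, 13 gained one and 78 tested changes changed sign, 10 of them of called changes. Sign changes of values without a test are not among the 78. The remaining 115 were counts, or values without a test, that moved beyond their limit. Untreated KO minus WT kept its sign for miR-29a, miR-29b, miR-29b* and miR-29c under every alternative run on all their probes. A weaker miR-29b* probe taken alone gave 0.0. Only 2 arrays per group, a star strand near background and treatment on its own slide limit what can be shown.

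The number of members called for KO at 12 h and at 24 h, untreated KO minus WT, KO minus WT at 24 h and the responses at 12 h and 24 h was 0 with the percentile over all mouse miRNAs, no scaling, the software's total signal and the deposited values (0 to 2 at an unadjusted p under 0.05, limma). No miRNA of all tested was called with the deposited values. With normexp it was 1 for KO at 12 h and 0 for the others. With quantile normalization it was 1 for KO at 12 h, 1 untreated, and 0 for KO at 24 h and both responses. Without the detection filter it was 2 for KO at 12 h, 1 at 24 h, 1 untreated, and 0 for KO minus WT at 24 h and both responses. The responses gave 0 with probes averaged, with double the floor, and with miRNAs detected on all 12 arrays, where miR-29b* was not tested. KO minus WT at 12 h gave 1 with double the floor, the run as a random block or no variance shrinkage. KO minus WT at 24 h gave 0 with the floor lowered to 0.5 of itself, only the groups compared, or without the 3 dim arrays. With only the groups compared it was 0 for KO at 24 h and 1 untreated. The random block gave 2 for the 12 h response. Without the 3 dim arrays it was 1 for KO at both times. The cause was not tested.

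With the replicate block, KO at 24 h gave 4 called members, miR-29a being added at an adjusted p of 0.0291 from limma, and no other count of called members changed.

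Leaving out 1 array at a time, the number called ran from 0 to 3 untreated, 1 to 4 for KO at 12 h, 1 to 4 for KO at 24 h, and 0 to 1 for KO minus WT at 12 h, KO minus WT at 24 h, WT at 12 h and each response. The strand difference ran from -0.41 to -0.078 for KO minus WT, from -1.22 to -0.84 for treated minus untreated in KO and from 0.36 to 0.66 in WT. It was -0.69 (KO minus WT) and -0.089 (KO treated minus untreated) with normexp, and 0.88 (KO minus WT) and 1.70 (WT treated minus untreated) with the software total. Sign changes ran for miR-29b* from -0.15 to 0.81 (KO minus WT, 24 h), from -0.064 to 0.063 (WT at 12 h) and from -0.74 to 0.22 (24 h minus 12 h, KO). For miR-29c they ran from -0.18 to 0.19 (WT at 12 h), from -0.17 to 0.12 (WT at 24 h) and from -0.21 to 0.16 (24 h minus 12 h, WT). For miR-29b they ran from -0.40 to 0.23 (24 h minus 12 h, WT), and for miR-29a from -0.011 to 0.17 (WT at 24 h).

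Sign changes by setting follow, as treated minus untreated within a genotype unless named. With normexp, miR-29b* was 0.030 in WT at 12 h. At 24 h in WT miR-29a was -0.14, miR-29b* 0.17 and miR-29c 0.076. For 24 h minus 12 h, miR-29b* was 0.14 and miR-29c 0.067 in WT, and miR-29b* 0.037 in KO. With the percentile over all mouse miRNAs, miR-29c was -0.015 in WT at 12 h and -0.058 for KO minus WT at 24 h.

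With quantile normalization, miR-29c was -0.37 in WT at 12 h and miR-29a -0.16 in KO at 24 h. For KO minus WT at 24 h, miR-29b* was -0.0053 and miR-29c -0.091. The response of miR-29a was -0.13 at 12 h and -0.52 at 24 h. For 24 h minus 12 h, miR-29a was 0.15 and miR-29c 0.17 in WT, and miR-29c 0.030 in KO.

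With no scaling, miR-29c was -0.023 in WT at 12 h, and miR-29a -0.44 and miR-29b -0.17 at 24 h. In KO at 12 h, miR-29a was -0.35 and miR-29c -0.18, and at 24 h miR-29a was -0.70, miR-29b -0.27 and miR-29c -0.52. For KO minus WT, miR-29b* was -0.35 and miR-29c -0.32 at 12 h, and -0.074 and -0.14 at 24 h. The responses were -0.49 for miR-29a, -0.30 for miR-29b and -0.15 for miR-29c at 12 h, and -0.26 for miR-29a and -0.096 for miR-29b at 24 h. With the software total, miR-29b* was 0.29 and miR-29c -0.14 in WT at 12 h, miR-29a -0.20 in WT at 24 h, and miR-29b* -0.34 at 12 h and -0.20 at 24 h for KO minus WT.

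With the deposited values, miR-29b* was 0.46 in WT at 12 h, and at 24 h miR-29a was -0.41, miR-29b -0.14 and miR-29b* 0.45. In these values and in the software total, a detected miR-29b* is nearly miR-29b, so its sign there is no separate check. In KO at 12 h, miR-29a was -0.35 and miR-29c -0.18, and at 24 h miR-29a was -0.70, miR-29b -0.27 and miR-29c -0.52. For KO minus WT, miR-29b* was -1.09 and miR-29c -0.34 at 12 h, and -0.87 and -0.13 at 24 h. The responses of miR-29a, miR-29b, miR-29b* and miR-29c were -0.55, -0.36, -0.24 and -0.21 at 12 h, and -0.29, -0.13, -0.025 and -0.0052 at 24 h. For 24 h minus 12 h in KO, miR-29b* was 0.21. Without the 3 dim arrays, miR-29c was 0.051 in WT at 24 h, and 0.045 in WT and 0.030 in KO for 24 h minus 12 h. The cause was not tested.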
